A study of Mus musculus with 6 samples.

Results

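Open chromatin at the nuclear genes of the mitochondrial respiratory chain was measured in sorted mouse hepatocyte nuclei by ATAC-seq, an assay that marks accessible DNA by where a transposase inserts adapters. A gene was included when its symbol was Sdha, Sdhb, Sdhc or Sdhd, or began with Nduf, Uqcr, Atp5 or with Cox followed by 4, 5, 6, 7 or 8. Peaks of the 6 libraries that shared at least 1 bp were merged, and a merged region belonged to such a gene when that gene had the nearest protein-coding span to the region's midpoint, within 5 kb. This gave 213 regions of 109853 in all, linked to 89 of the 96 genes. The rule itself used no level or fold change, but the genes were chosen with earlier results of these data known. Peaks were present in all 6 libraries at 102 of the 213 regions, in 2 to 5 libraries at 77 and in a single library at 34. The share present in all libraries was 47.9% for these regions and 47.1% for all regions.

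The dKO group (3 libraries) came from Ncor1/2 F/F male mice given an adeno-associated virus with Cre, and the control group (3 libraries) from Ncor1/2 F/F male mice given the virus with eGFP. Both groups thus carried the floxed alleles and received virus, and livers were taken on day 5 after it, at zeitgeber time 10 h. Nuclei that stained for the hepatocyte transcription factor HNF4a were sorted before the libraries were made. No label gives the promoter that drives Cre, the age of the mice or the number of animals behind each library, so p-values measure the spread between libraries, which may be technical. Peak lists hold no transcript levels, and the deletion itself was not checked here. In bulk libraries such as these, fewer nuclei with a site open and less opening in each nucleus cannot be told apart.

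NCOR1 is a corepressor that carries the histone deacetylase HDAC3 to nuclear receptors on DNA. The respiratory chain passes electrons from NADH through complex I, and from succinate through complex II, by way of coenzyme Q to complex III, then through cytochrome c to complex IV, which reduces oxygen. The proton gradient that complexes I, III and IV build drives ATP synthase, complex V. A few subunits are encoded in mitochondrial DNA and all others in the nucleus, many of them behind promoters known to bind NRF1, ETS-family factors (GABP), YY1 and SP1. Hepatocytes have many mitochondria and use the chain to make ATP for glucose synthesis.

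The promoter windows below (GRCm38.p6, the build of the deposited coordinates, from RefSeq) run from 250 bases before to 50 bases after the annotated start, 5′ to 3′ on the gene's strand. The first 6 are shown because, among genes with a listed window, they lie under the strongest main region of each complex that overlaps it, and the last because its region had the smallest p among lower regions that overlap the window of their gene. No region called higher overlapped such a window. Capitals mark every match, on either strand, to 8 motifs: NRF1 (GCGCANGCG), ETS (CCGGAAG), YY1 (AANATGGC), SP/KLF (GGGCGG), CRE (TGACGTCA), NFY (CCAATCA), a nuclear receptor site (AAGGTCA) and E-box (CACGTG).
Ndufv2, chr17:66101510-66101809, minus strand: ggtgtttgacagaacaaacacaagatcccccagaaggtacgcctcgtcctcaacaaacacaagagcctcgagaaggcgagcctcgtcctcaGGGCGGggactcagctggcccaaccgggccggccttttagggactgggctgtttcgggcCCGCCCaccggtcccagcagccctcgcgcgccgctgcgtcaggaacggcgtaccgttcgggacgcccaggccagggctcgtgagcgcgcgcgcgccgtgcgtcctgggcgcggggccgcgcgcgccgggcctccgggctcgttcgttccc
Ndufaf5, chr2:140170396-140170695, plus strand: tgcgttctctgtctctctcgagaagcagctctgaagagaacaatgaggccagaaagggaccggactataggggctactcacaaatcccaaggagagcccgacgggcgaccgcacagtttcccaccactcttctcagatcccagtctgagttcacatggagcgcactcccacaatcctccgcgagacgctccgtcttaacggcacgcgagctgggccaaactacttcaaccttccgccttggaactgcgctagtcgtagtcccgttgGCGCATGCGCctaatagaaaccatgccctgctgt
Sdhb, chr4:140961021-140961320, plus strand: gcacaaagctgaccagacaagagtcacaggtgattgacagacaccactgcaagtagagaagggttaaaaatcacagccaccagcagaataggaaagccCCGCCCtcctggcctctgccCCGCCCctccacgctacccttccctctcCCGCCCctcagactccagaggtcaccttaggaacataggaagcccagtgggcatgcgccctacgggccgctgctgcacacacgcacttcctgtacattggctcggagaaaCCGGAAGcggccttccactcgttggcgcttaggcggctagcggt
Uqcrfs1, chr13:30545267-30545566, minus strand: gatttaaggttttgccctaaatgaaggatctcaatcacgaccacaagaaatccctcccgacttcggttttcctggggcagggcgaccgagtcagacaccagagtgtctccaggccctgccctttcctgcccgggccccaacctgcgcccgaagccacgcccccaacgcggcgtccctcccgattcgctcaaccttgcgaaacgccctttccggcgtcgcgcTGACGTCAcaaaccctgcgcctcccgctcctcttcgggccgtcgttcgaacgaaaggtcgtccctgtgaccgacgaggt
Cox7c, chr13:86046746-86047045, minus strand: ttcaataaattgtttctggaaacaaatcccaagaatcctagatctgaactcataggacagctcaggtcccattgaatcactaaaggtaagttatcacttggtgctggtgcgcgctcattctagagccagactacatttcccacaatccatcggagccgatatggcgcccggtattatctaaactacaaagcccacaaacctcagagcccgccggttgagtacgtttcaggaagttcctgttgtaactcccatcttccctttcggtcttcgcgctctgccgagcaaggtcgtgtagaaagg
Atp5c1, chr2:10080383-10080682, minus strand: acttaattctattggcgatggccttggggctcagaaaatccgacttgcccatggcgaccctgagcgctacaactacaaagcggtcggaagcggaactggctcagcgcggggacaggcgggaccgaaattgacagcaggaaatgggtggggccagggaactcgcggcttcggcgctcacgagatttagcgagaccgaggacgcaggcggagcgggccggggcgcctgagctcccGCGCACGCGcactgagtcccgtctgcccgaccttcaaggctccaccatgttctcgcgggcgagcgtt
Atp5g1, chr11:96075582-96075881, minus strand: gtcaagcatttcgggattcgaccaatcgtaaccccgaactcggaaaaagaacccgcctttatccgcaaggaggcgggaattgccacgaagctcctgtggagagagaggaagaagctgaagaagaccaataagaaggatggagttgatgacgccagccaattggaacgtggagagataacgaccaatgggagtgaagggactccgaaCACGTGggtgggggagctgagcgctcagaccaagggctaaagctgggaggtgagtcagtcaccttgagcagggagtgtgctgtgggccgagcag

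Counted from the first base printed, Ndufv2 held SP/KLF matches at 92 to 97 and 151 to 156, and Ndufaf5 held NRF1 matches at 267 to 275 and 268 to 276 that overlap as a palindrome. Sdhb held SP/KLF matches at 99 to 104, 119 to 124 and 147 to 152 and an ETS match at 257 to 263. Uqcrfs1 held a CRE match at 222 to 229, Atp5c1 an NRF1 match at 234 to 242 and Atp5g1 an E-box match at 207 to 212, while Cox7c held none of the 8. No matches of different motifs overlapped in these 7 windows. A match is a run of letters and not a measured binding site.

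The level used here is HOMER's normalized tag count, the number of sequenced tags at a peak scaled to library depth by the authors. All peaks of a library had 1 width, so levels of different genes within a library are per equal length. The width was narrowest in dKO 1, dKO 2 and control 1 (the narrow-peak libraries), and in the wide-peak libraries it was 166 bp in control 2 and 172 bp in dKO 3 and control 3. The count of respiratory chain regions with a peak followed that width: it was 177, 172 and 123 in dKO 1, 2 and 3, against 166, 126 and 122 in control 1, 2 and 3. The lists held 71473 to 84614 peaks in dKO libraries and 68316 to 83371 in control libraries. The low values lay on a step of 0.04786 to 0.06076, so that, if a step is 1 tag, the median respiratory chain region rested on 436 to 625 tags and carried a counting error of 4.0% to 4.8%. All 8 hepatocyte marker genes had a region. Of 5 genes each, markers with a region numbered 1 for Kupffer cells, 5 for sinusoidal endothelium, 4 for stellate cells, 3 for cholangiocytes and 1 for lymphocytes.

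Respiratory chain regions had higher levels than regions in general and, over promoter windows, levels near those of promoters in general. The median level of the 102 regions present in all libraries was 28.6, against 15.9 over all 51749 such regions, and their median percentile was 76.5. Of the respiratory chain regions 54.9% lay over the window of their gene, while 14.3% of all regions lay over any window. The median level over these windows was 34.9 for the respiratory chain and 32.4 for all regions. The main region of a gene is the one present in the most libraries with the highest mean level. Over the 77 genes whose main region was present in all libraries, its level had a median of 31.3 in dKO and 36.4 in control livers. The median was lowest for complex IV, at 21.5 in dKO and 30.1 in control livers over 13 genes, and lay between 27.8 and 34.4 in dKO and between 35.6 and 38.4 in control livers for the other groups. These are levels scaled to depth but not centred between libraries, and no test of the difference between complexes was made. All regions with mean levels of 31.15 to 41.6 had a median log2 fold change of -0.17 in dKO after median centring. After quantile normalization the median for respiratory chain regions was 0.00. Genes were grouped into complexes by symbol, so that Ndufa4 and Ndufa4l2 were counted in complex I.

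**Figure D1:**
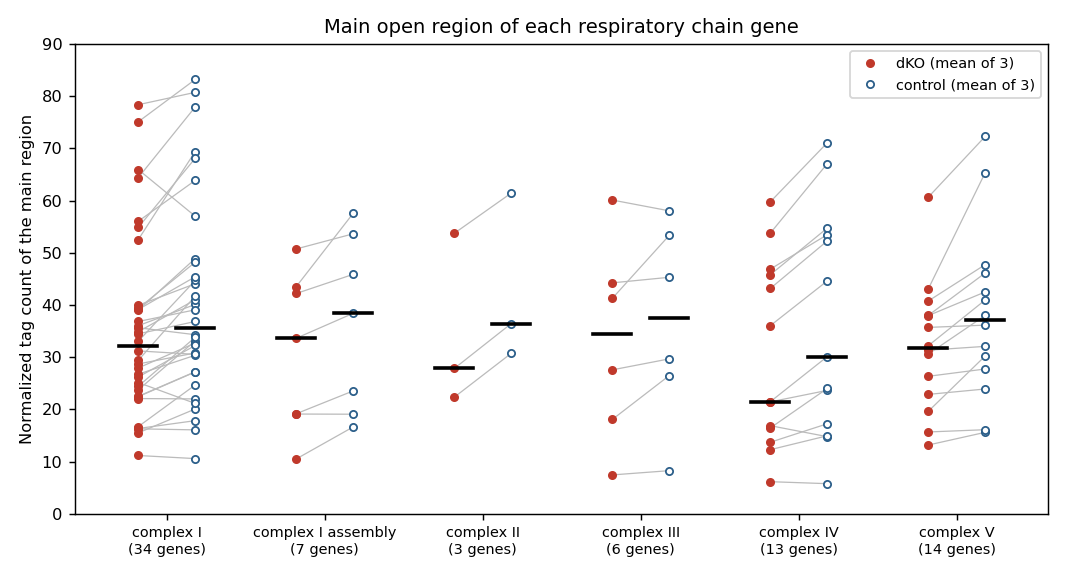
Normalized tag count of the main open region of each respiratory chain gene, mean of 3 dKO libraries (filled red, left) and of 3 control libraries (open blue, right), with 1 line per gene and black bars for the median of each group of genes. The medians over complex IV stand at 21.5 on the dKO side and 30.1 on the control side, and most lines stand lower on the dKO side. Levels are not centred between libraries.

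In complex I the most open gene was Ndufv2, a subunit of the module that oxidizes NADH. Its region at the start site, chr17:66101535-66101728, had 72.7, 69.6 and 92.8 in dKO libraries and 89.0, 76.9 and 76.3 in control libraries. The groups overlapped there, and the gene was not called. At the other end stood Ndufs6 and Ndufb11, whose linked regions had peaks in some libraries only. Ndufs6 had 10.5 and 10.9 in dKO 1 and 2 and 5.22 and 6.80 in control 1 and 2, and Ndufb11 had 7.29 and 6.85 in dKO 1 and 2 and 9.42 in control 1. For both, a stronger region lay in the promoter window and was linked to a neighbouring gene, as given further on.

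Among complex I assembly factors, which help build the complex and are not part of it, Ndufaf5 had 49.5, 44.5 and 58.2 in dKO and 57.2, 50.4 and 53.3 in control libraries. Ndufaf4 had 39.6, 42.1 and 48.9 in dKO and 64.4, 53.4 and 54.9 in control libraries at chr4:24897852-24898092. The dKO values of Ndufaf4 all lay below the control values, at a log2 fold change of -0.33 ± 0.119 (SE, n = 3 each) and a limma adjusted p of 0.061, which did not pass the threshold of 0.05. The lowest main regions were those of Ndufaf1, with means of 19.1 in both groups, and Ndufaf2, with 10.5 ± 1.79 in dKO and 16.6 ± 0.379 in control livers (SD, n = 3 each). That of Ndufaf2 lay 88259 bp from the start site. The promoter window of Ndufaf2 held stronger peaks, split between adjacent regions. At chr13:108158306-108158587 they had 25.2, 28.4 and 45 in dKO and 40.5 and 39.8 in control 2 and 3. At chr13:108158615-108158723 control 1 had 43.2.

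In complex II, Sdhb, the iron-sulfur subunit, had 56.1, 43.4 and 61.7 in dKO and 74.5, 53.1 and 56.7 in control libraries. Sdha, the flavoprotein that oxidizes succinate, had 26.3, 24.2 and 33.0 in dKO and 42.3, 33.0 and 34.0 in control libraries. Of the membrane anchors, Sdhc had a main region at 21.6, 20.8 and 24.6 in dKO and 37.5, 26.8 and 27.9 in control libraries. Sdhd had a linked region present in 5 libraries, at 8.51, 8.94 and 13.2 in dKO and at 9.42 and 17.0 in control 1 and 2. The promoter window of Sdhd held a stronger region linked to the neighbouring Timm8b, at 27.3, 25.1 and 40.4 in dKO and 43.7, 36.5 and 38.3 in control libraries, and Sdhc had further regions described below. None of the 4 complex II regions present in all libraries was called.

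In complex III, Uqcrc2, a core protein, had 60.2, 55.9 and 64.2 in dKO and 61.9, 57.1 and 55.1 in control libraries, and the groups overlapped. Uqcrfs1, the Rieske iron-sulfur protein, had 36.4, 37.8 and 49.6 in dKO and 58.5, 51.5 and 50 in control libraries. Its dKO values lay below all control values, with a log2 fold change of -0.31 ± 0.118 (SE, n = 3 each) and a limma adjusted p of 0.078. The lowest were Uqcr11, described among the called regions, and Uqcr10, whose linked region lay 4168 bp from the gene with 8.63, 4.81 and 8.87 in dKO and 6.44, 8.95 and 9.36 in control libraries.

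In complex IV, Cox7c had 59.3, 53.2 and 66.8 in dKO and 71.5, 70.6 and 71.1 in control libraries, and Cox7a2 had 50.6, 46.1 and 64.6 in dKO and 67.3, 59.9 and 74.0 in control libraries. All dKO values of Cox7c lay below its control values, while those of Cox7a2 overlapped, and neither was called. Cox6b2, known as the testis form of its subunit, had a single peak, 3.88 in control 2. Cox6a2, the heart and muscle form, had 6.30, 6.53 and 5.59 in dKO and 5.48, 4.74 and 7.06 in control libraries, at 2026 bp from the gene.

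In complex V, Atp5c1, the gamma subunit that turns inside the catalytic head, had 57.5, 55.8 and 68.7 in dKO and 80.4, 68.8 and 67.7 in control libraries. Atp5e, the epsilon subunit, came second and is described among the called regions. The lowest were Atp5l, with 12.7, 10.6 and 16.2 in dKO and 13.3, 16.1 and 17.4 in control libraries, and Atp5md, with 15.9, 12.6 and 18.5 in dKO and 14.7, 17.1 and 16.5 in control libraries. The groups overlapped at Atp5c1, Atp5l and Atp5md.

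Between dKO and control livers, 14 of the 102 respiratory chain regions present in all libraries were lower in dKO, 2 were higher and 86 were not called. The fit was limma on log2(normalized tag count + 1), each library centred on its median, with p-values adjusted by the Benjamini-Hochberg method over all 51749 regions and 0.05 as the threshold. Over all of these, 11.6% were lower and 8.19% higher in dKO, beside 13.7% and 1.96% of the respiratory chain regions. The share lower was thus near that of all regions, while the share higher was under it. Among all regions over any promoter window, 11% were lower and 1.99% higher, with a median log2 fold change of -0.13. The share of 1.96% higher was near that of promoters. Respiratory chain regions had a median log2 fold change of -0.13 and all regions one of -0.02, and 68.6% against 52.5% of the fold changes were negative. All dKO values lay below all control values at 23 of the 102 regions, where 15.8% of all regions did so, and above them at 5, where 12.6% of all regions did so. With 3 against 3 libraries an exact permutation test of a single region cannot give a p below 0.1.

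These counts moved with the scaling. After quantile normalization 6 respiratory chain regions were lower and 5 were higher, and the median log2 fold change became 0.00 for both the respiratory chain and all regions. The 6 lower ones were at Ndufs4, Ndufaf2, Ndufa2, Uqcr11, Atp5e and Atp5g1, each also lower after median centring, and the higher ones included regions at Ndufa8, Ndufa4l2, Ndufab1 and Uqcrc2, none of which was called after median centring. At Ndufa8 that region was another than the lower one described further on, chr2:36039597-36039858, with 31.9, 31.8 and 28.4 in dKO and 29.1, 23.8 and 17.4 in control libraries. Cyclic loess normalization also gave 6 lower and 5 higher. Without dKO 1, and likewise without dKO 2, limma called 1 respiratory chain region lower, that of Ndufs4 described further on, and 0 higher. In those fits 2061 and 1402 of all regions were still lower in dKO. Without control 1, 5 were lower and 2 higher.

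**Figure D2:**
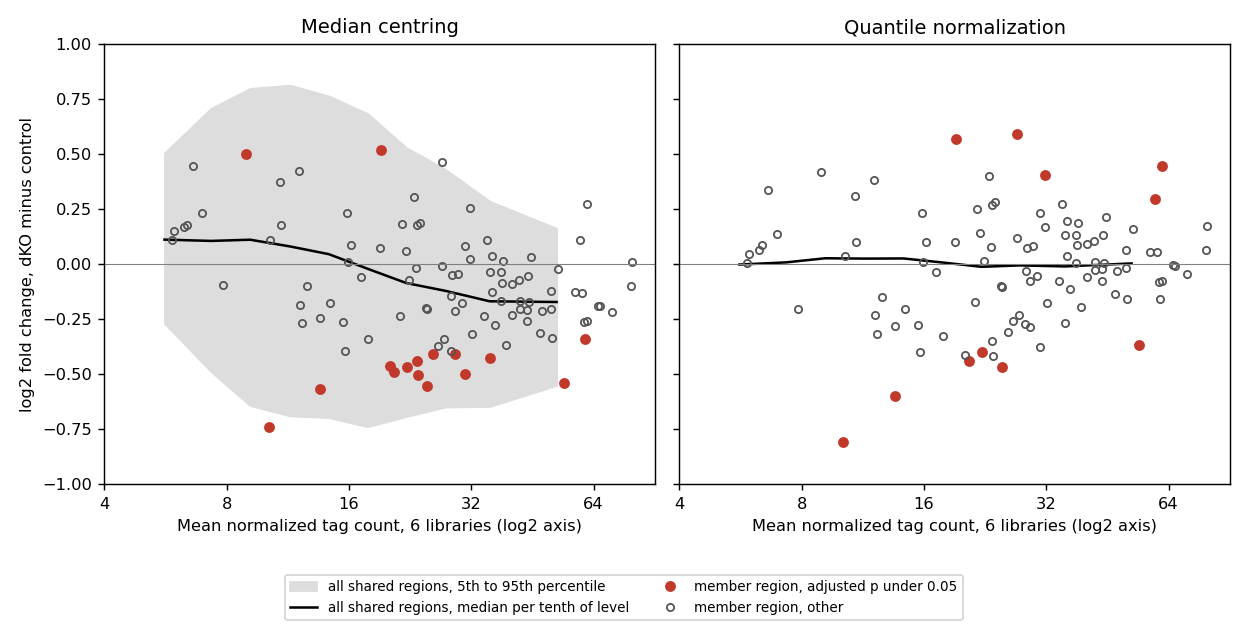
Log2 fold change (dKO minus control) against mean normalized tag count for the 102 respiratory chain regions, filled red where the adjusted p was under 0.05, after median centring (left) and quantile normalization (right). The black line is the median over all regions in each of 10 classes of level and the grey band on the left their 5th to 95th percentile: the line descends from 0.11 to -0.17 on the left and stays near 0 on the right.

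Stronger regions had lower fold changes, in the respiratory chain as in all regions. With all regions split into 10 equal classes by level, their median log2 fold change was 0.11 in the lowest class and -0.17 in the highest. Of the respiratory chain regions 27 were in the highest class, with a median of -0.19, and 1.02% of all regions in that class were higher in dKO. The correlation across regions of the fold change with the log2 mean was -0.28 both for the 102 respiratory chain regions and for all 51749, given as a description because regions share libraries. After quantile normalization it was 0.07 for the respiratory chain and -0.02 for all regions. Respiratory chain regions with a mean of at least 20 numbered 74, or 72.5%, against 39.7% of all regions.

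**Figure D3:**
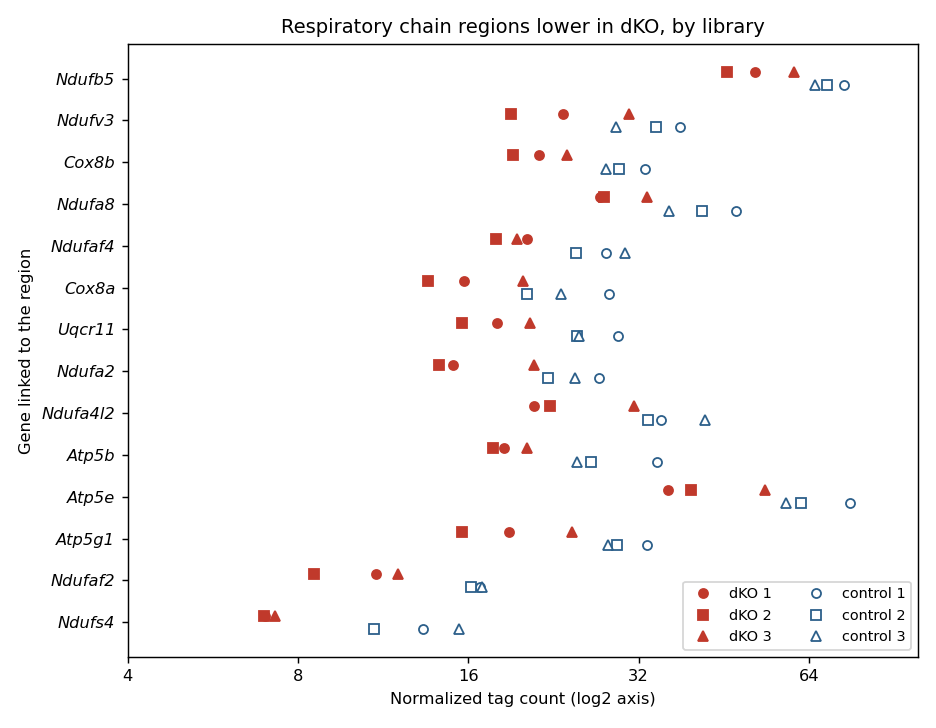
Normalized tag count (log2 axis) in each library at the 14 respiratory chain regions that were lower in dKO, dKO filled red and control open blue, with the marker shape giving the library number. Of these 14 regions, which were called on the same libraries, the groups overlap at Ndufv3 alone.

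Of the 14 lower regions, 6 belonged by symbol to complex I (Ndufa4l2 among them), 2 to its assembly factors, 1 to complex III, 2 to complex IV and 3 to complex V. Their log2 fold changes ran from -0.74 to -0.34 and their limma adjusted p from 0.0098 to 0.048. Groups did not overlap at 13 of them, which their call on the same libraries largely set in advance. Over all regions present in all libraries, 15.8% had every dKO value below every control value. The 2 higher regions were linked to complex I genes. In complex II none of the 4 regions was called in either direction.

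The change with the smallest p lay inside Ndufs4, an accessory subunit needed for a stable complex I, whose loss in humans and mice causes a Leigh-like disease. The region, chr13:114301546-114301764, lay 86439 bp from the start site. It had 6.99, 6.95 and 7.29 in dKO libraries and 13.3, 10.9 and 15.4 in control libraries. The dKO values were close together and all below the lowest control value, with a log2 fold change of -0.74 ± 0.170 (SE, n = 3 each) and a limma adjusted p of 0.0098. It kept its call after quantile normalization, at -0.81. The other regions of Ndufs4 present in all libraries did not change past the threshold, and at chr13:114376967-114377162 the values were 9.09, 7.63 and 6.20 in dKO and 5.91, 5.27 and 5.49 in control libraries.

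Ndufaf2, an assembly factor bound to a late intermediate of complex I, showed a like pattern. Its region at chr13:108070260-108070472, 88259 bp from the start site, had 11, 8.52 and 12.0 in dKO and 16.8, 16.2 and 16.9 in control libraries. The log2 fold change was -0.57 ± 0.145 (SE, n = 3 each; limma adjusted p = 0.016). With 9 regions each, Ndufs4 and Ndufaf2 had the most regions of the genes studied, where the median was 2 per gene. Ndufaf4 was called at chr4:24896976-24897162, 1014 bp before its start, with 20.3, 17.9 and 19.5 in dKO and 28.0, 24.8 and 30.3 in control libraries and a log2 fold change of -0.44.

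The other lower complex I regions lay close to a gene end. Ndufa2 had 15, 14.2 and 20.9 in dKO and 27.2, 22.1 and 24.7 in control libraries. Ndufa8 at chr2:36049148-36049460 had 27.3, 27.8 and 33.1 in dKO and 47.5, 41.4 and 36.2 in control libraries. Ndufb5 at chr3:32736777-32737041 had 51.4, 45.9 and 60.3 in dKO and 73.8, 68.9 and 65.5 in control libraries. These genes encode accessory subunits, and at each the highest dKO value stayed under the lowest control value, with log2 fold changes of -0.49 for Ndufa2, -0.43 for Ndufa8 and -0.34 for Ndufb5. Ndufv3, another accessory subunit, at chr17:31519946-31520154, was called at a limma adjusted p of 0.048 although dKO 3 (30.8) stood above control 3 (29.2). Its other values were 23.5 and 19 in dKO and 37.8 and 34.4 in control libraries.

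Ndufa4l2, a paralog of Ndufa4 known as a hypoxia-induced gene, had 3 regions present in all libraries that did not move alike. At chr10:127516166-127516368 the values were 20.9, 22.3 and 31.4 in dKO and 35.1, 33.2 and 41.9 in control libraries, with a log2 fold change of -0.50 ± 0.137 (SE, n = 3 each; limma adjusted p = 0.022). At chr10:127512915-127513087 they were 34.3, 33.2 and 34.6 in dKO and 29.8, 28.8 and 30.2 in control libraries, all dKO values above all control values. That second region had a log2 fold change of 0.26 and was not called, but was called higher after quantile normalization at 0.41.

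In ATP synthase the 3 lower regions lay next to start sites. Atp5g1, one of 3 genes for the same subunit c of the membrane ring, had 18.9, 15.6 and 24.4 in dKO and 33.1, 29.3 and 28.3 in control libraries at chr11:96075796-96076003, the region over the last window printed above. The log2 fold change was -0.56 ± 0.130 (SE, n = 3 each; limma adjusted p = 0.011). Atp5e, at chr2:174464095-174464299, had 36.1, 39.6 and 53.6 in dKO and 75.6, 62.1 and 58.4 in control libraries, and a log2 fold change of -0.54. Atp5b, the catalytic beta subunit, at chr10:128082898-128083091, had 18.5, 17.7 and 20.3 in dKO and 34.5, 26.4 and 24.9 in control libraries, and a log2 fold change of -0.50. The dKO values lay under all control values in each of these regions. Atp5b also had a stronger region 2035 bp from the gene that was not called, with means of 38.0 in dKO and 42.5 in control livers.

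In complex III, Uqcr11, a small accessory subunit, had 18, 15.6 and 20.6 in dKO and 29.4, 24.9 and 25.1 in control libraries at chr10:80406761-80407007, with a log2 fold change of -0.47 ± 0.128 (SE, n = 3 each; limma adjusted p = 0.021). In complex IV both called regions belonged to subunit 8. Cox8a, the widely expressed form, had 15.7, 13.6 and 20 in dKO and 28.4, 20.3 and 23.3 in control libraries at chr19:7217587-7217793. Cox8b, the heart and muscle form, had 21.3, 19.2 and 23.9 in dKO and 32.8, 29.5 and 28.0 in control libraries at chr7:140903418-140903627, a region 3076 bp outside the gene. Groups did not overlap at any of these 3 regions, though dKO 3 and control 2 of Cox8a were close.

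Among the higher regions, Ndufs5, an accessory subunit, had 12.1, 8.68 and 10.5 in dKO and 7.40, 8.14 and 6.62 in control libraries at chr4:123712612-123712796, 5482 bp from its start and 6 bp beyond a gene end. Its log2 fold change was 0.50 ± 0.164 (SE, n = 3 each; limma adjusted p = 0.045), and after quantile normalization it was not called.

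Peak width was treated as a technical batch. Of the 102 regions, 25 had fold changes of opposite sign in the narrow-peak and the wide-peak libraries, and limma found a difference between the classes at an unadjusted p under 0.05 in 17 (16.7%), against 10.4% of all regions, and at an adjusted p under 0.05 in 0 of these or of all. At the start of Cox4i1, the main form of its subunit, the log2 fold change was -0.66 within the narrow-peak libraries and 0.07 within the others, and at chr10:80142234-80142472 of Atp5d, the delta subunit, it was -0.56 and 0.03. All 14 lower regions had a negative and both higher regions a positive log2 fold change within the narrow-peak libraries (2 dKO, 1 control) and within the wide-peak libraries (1 dKO, 2 control), though these were the libraries on which they were called. The lower regions ran from -0.85 to -0.40 within the narrow-peak libraries and from -0.85 to -0.14 within the others. Atp5e showed one of the wider gaps, with -0.85 within the narrow-peak libraries and -0.26 within the others. Within the wide-peak libraries limma called 0 respiratory chain regions and 0 of all regions, with 11 and 7516 at an unadjusted p under 0.05.

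A peak in every library of just one of the groups was seen at 1 region in each direction. Cox6a1, the liver form of its subunit, had a peak 335 bp inside the gene, chr5:115348528-115348718, with 8.92, 9.15 and 16 in dKO libraries and no peak in control libraries; 1.57% of all regions had that pattern. Ndufs1, the large iron-sulfur subunit of complex I, had a peak 4708 bp outside the gene, chr1:63138781-63138987, with none in dKO libraries and 9.90, 11.5 and 13.2 in control libraries; 1.34% of all regions had that pattern. A site without a peak is not shown to be closed, since the lists hold only peaks that stood out from their surroundings. At Sdhc, adjacent regions had peaks in different libraries. At chr1:171143471-171143643 the values were 47.0, 56.3 and 56.2 in dKO libraries and 24.3 in control 1 alone, and at chr1:171143102-171143295 they were 42.1 and 41.9 in dKO 1 and 2 and 28.2, 33.1 and 34.3 in control libraries.

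Respiratory chain regions lay mostly at promoters. Of the 102 regions present in all libraries, 54.9% overlapped the promoter window of their gene, while 14.3% of all regions overlapped any window, and 68.6% against 21.9% had their midpoint within 1 kb of a gene end. The midpoints of the 56 regions over their own window lay from 313 bases before to 129 bases after the start site, with a median of 23 bases before it, and 33 lay before it. Of 78 genes with a listed window, 67 (85.9%) held a region present in all libraries there, against 44.3% of 17274 protein-coding genes. In 6 further genes, Cox7b, Ndufa4, Ndufa7, Ndufaf2, Ndufs4 and Uqcrh, the window had peaks in 3 to 5 libraries. It had no peak in Cox6b2, Cox7b2, Cox8b, Ndufa13 and Ndufb4b.

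The share lower was near the same over promoter windows as over all respiratory chain regions present in all libraries, at 14.3% and 13.7%. Of the 56 regions over their own window, 8 were lower (14.3%) and 0 higher, at a median log2 fold change of -0.19 and a median level of 34.9. Among all 7403 regions over any window 11% were lower and 1.99% higher, with a median of -0.13 and a median level of 32.4, so that these promoters stood near the background of promoters. The 25 regions outside the window of a gene that had one included 4 lower and 1 higher, at a median log2 fold change of 0.11 and a median level of 12.6. The 21 regions of genes without a listed window included 2 lower and 1 higher, at a median of -0.17. After quantile normalization the medians were -0.03 in own windows, 0.09 elsewhere and 0.01 for genes without a window. No test of the difference between these places was made.

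**Figure D4:**
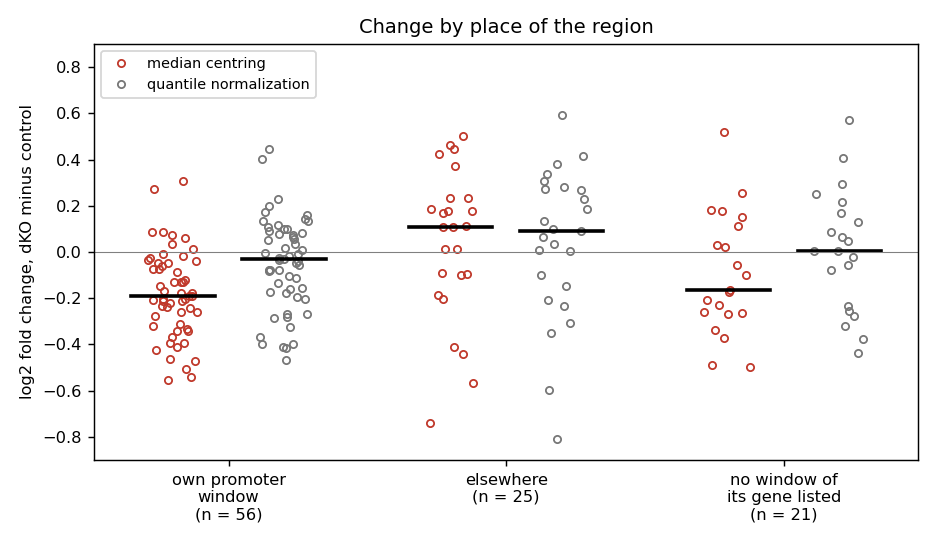
Log2 fold change (dKO minus control) of respiratory chain regions over their own promoter window (n = 56), elsewhere (n = 25) and at genes without a listed window (n = 21), after median centring (red) and quantile normalization (grey), each point a region and each bar a median. In own windows the bar stands at -0.19 after median centring and at -0.03 after quantile normalization.

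Respiratory chain promoters are often shared with a neighbour on the opposite strand. Of the 78 genes, 24 (30.8%) had another gene's start within 1 kb on the opposite strand, against 9.09% of all genes with a window. Among genes whose window held a region present in all libraries the shares were 28.4% (19 of 67) and 15.8%. Neighbours included Gabpa, which encodes the DNA-binding subunit of GABP, for Atp5j, Timm8b, a mitochondrial import chaperone, for Sdhd, and the ribosomal protein genes Mrpl47 for Ndufb5 and Rps28 for Ndufa7. The shared promoter of Atp5j and Gabpa was the most open region over a respiratory chain window that was linked to a neighbour, at 73.8, 66.9 and 93.0 in dKO and 101.8, 85.2 and 87.9 in control libraries, and it was not called.

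In all, 12 regions over a respiratory chain window were linked to a neighbouring gene and so were not among the 213. Of these, the region linked to Tepsin in the Ndufaf8 window had peaks in dKO 1 and 2 only and was not tested. Of the others, 3 were lower in dKO, where 11% of all regions present in all libraries over any promoter window were lower. The window of Ndufs6, linked to Mrpl36, had 30.3, 25.9 and 37.7 in dKO and 57.7, 45.1 and 46.8 in control libraries, with a log2 fold change of -0.60 ± 0.124 (SE, n = 3 each; limma adjusted p = 0.0059). The window of Ndufb11, linked to Rbm10, had 17.3, 13.3 and 21.0 in dKO and 23.8, 22.4 and 26.8 in control libraries, with a log2 fold change of -0.43. That of Atp5pb, linked to Wdr77, had 30.3, 26.6 and 36.9 in dKO and 40.1, 46.4 and 44.1 in control libraries, with a log2 fold change of -0.41. The window of Uqcr10, linked to Zmat5, had means of 40.4 in dKO and 41.2 in control livers and was not called. Counting every region over a respiratory chain window, whatever its link, 67 were present in all libraries, of which 11 were lower (16.4%) and 0 higher. Over all regions over any window 11% were lower and 1.99% higher, so a count of 0 higher was near that background.

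Motifs were counted in the windows with a region present in all libraries, 70 of respiratory chain genes and 8574 in all. NRF1 was found in 32.9% of the respiratory chain windows and 15.9% of all, YY1 in 22.9% against 9.07% of all, and the nuclear receptor site in 11.4% against 2.88% of all. ETS was found in 25.7% against 21.4% of all and CRE in 5.71% against 3.37% of all. SP/KLF was less frequent, in 44.3% of respiratory chain windows and 70.3% of all, as were NFY, in 5.71% against 10.5% of all, and E-box, in 7.14% against 10% of all. Over windows open or not, the respiratory chain share and the share of all windows were 27.7% against 8.65% for NRF1, 22.9% against 6.41% for YY1, and 43.4% against 46.7% for SP/KLF. They were 22.9% against 11.7% for ETS, 9.64% against 4.06% for the nuclear receptor site, 4.82% against 2.26% for CRE, 7.23% against 9.18% for NFY, and 8.43% against 7.91% for E-box. The open windows had a median GC content of 59.0% in the respiratory chain and 61.7% in all.

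**Figure D5:**
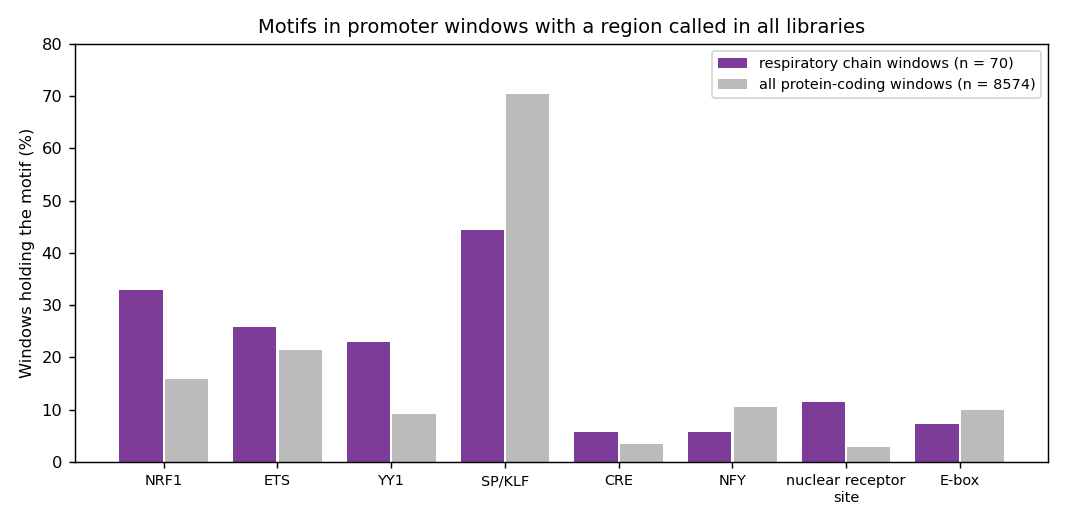
Share of promoter windows that hold each of 8 motifs on either strand, among windows with an open region in all libraries, for respiratory chain genes (purple, n = 70) and all protein-coding genes (grey, n = 8574). NRF1, YY1 and the nuclear receptor site stand above the grey bars, and SP/KLF stands below at 44.3% against 70.3%.

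Promoter regions with and without a match were set side by side. The 19 promoter regions with an NRF1 match had a median log2 fold change of -0.24 with 2 lower, and the 37 without one had -0.17 with 6 lower. With the nuclear receptor site 7 regions had a median of -0.18 with 1 lower, and 49 without it had -0.19 with 7 lower. For YY1 the medians were -0.18 with a match (11 regions, 2 lower) and -0.19 without (45 regions, 6 lower). These are descriptions, and no test was made.

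Subunits with tissue forms differed in which form was open. For COX4 the main form Cox4i1 had means of 36.0 in dKO and 44.6 in control livers and the lung form Cox4i2 had no region. For COX6A the liver form Cox6a1 had 16.9 in dKO and 14.8 in control livers at a main region 1146 bp from the start site. Over its promoter window Cox6a1 went the other way, with 13.1 in dKO and 18.1 in control livers. That region had a log2 fold change of -0.40 and was not called. The muscle form Cox6a2 had 6.14 in dKO and 5.76 in control livers, at 2026 bp from the gene. For COX6B the common form Cox6b1 had 21.4 in dKO and 23.6 in control livers. For COX7A the liver form Cox7a2 had 53.8 in dKO and 67.1 in control livers, Cox7a2l, which joins complexes III and IV in supercomplexes, had 43.2 in dKO and 52.3 in control livers, and the muscle form Cox7a1 had 12.3 in dKO and 14.9 in control livers. Cox7b had means of 7.52 (1 library) in dKO and 11 in control livers, and Cox7b2 had no region. For subunit 8 the muscle form Cox8b had a level of 21.5 in dKO and 30.1 in control livers, at a site 3076 bp from the gene, and no peak in its promoter window. The common form Cox8a had 16.4 in dKO and 24.0 in control livers, over its promoter window. The sites of Cox8a and Cox8b are unlike, so these levels do not rank the forms. Of the subunit c genes, Atp5g2 had 35.7 in dKO and 36.1 in control livers, Atp5g3 had 32.2 in dKO and 41.0 in control livers, and Atp5g1 had 19.6 in dKO and 30.2 in control livers. Atp5g1 was called lower, while the main regions of Atp5g2 and Atp5g3 had log2 fold changes of 0.03 and -0.28 that were not called. Ndufa4, now known to belong to complex IV, had 31.9 and 33.0 in dKO 1 and 2 and 49.7 in control 1. These are the narrow-peak libraries, and Ndufa4 had no peak in the wide-peak libraries.

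No region was linked to 7 genes: Atp5h, Atp5pb, Cox4i2, Cox7b2, Cox8c, Ndufb4b and Ndufb4c. For Atp5h and Atp5pb the promoter window nonetheless held a region present in all libraries, linked to Kctd2 and Wdr77. The region at Atp5h had 16.2, 13.0 and 16.8 in dKO and 23.7, 20.9 and 19.8 in control libraries, which did not overlap, and it was not called at a limma adjusted p of 0.053.

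Genes that serve the chain were listed beside it, and each list's counts stand against 11.6% lower and 8.19% higher over all regions, with no test of any list. Of 60 regions of assembly factors with other names, 6 were lower and 0 higher in dKO, with a median log2 fold change of -0.16. The smallest p belonged to Foxred1, which acts in complex I assembly, with 24.1, 20.9 and 30.7 in dKO and 46.8, 37.6 and 37.8 in control libraries, and to Ecsit, with 23.4, 21.5 and 27.9 in dKO and 44.8, 34.6 and 37.4 in control libraries. Of 50 regions of coenzyme Q and cytochrome c genes, 9 were lower and 4 higher, with a median of -0.12. They included Gpd2, the mitochondrial glycerol phosphate dehydrogenase, with 47.1, 41.6 and 65.1 in dKO and 85.6, 76.8 and 89.8 in control libraries. In the other direction Etfb, a subunit of the electron transfer flavoprotein, had 43.3, 32 and 34.6 in dKO and 19.4, 19.4 and 17.4 in control libraries.

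Of 51 regions of citrate cycle genes, 7 were lower and 3 higher, with a median of -0.03, against the same 11.6% and 8.19%. Fh1, fumarase, had 25.1, 21.7 and 32.6 in dKO and 67.2, 56.1 and 46.3 in control libraries at one region, with a log2 fold change of -1.01, and of -0.91 at another. Of 79 regions of known regulators of respiratory genes, 15 were lower and 5 higher, with a median of -0.07, against 11.6% and 8.19% of all regions. Ppargc1b, a coactivator of NRF1 and of estrogen-related receptors, had 44.1, 36.4 and 39.0 in dKO and 23.5, 17.9 and 19.6 in control libraries at one region and a log2 fold change of 1 (limma adjusted p of 0.00099), and of 0.94 at another. The dKO and control values did not overlap at any of these named regions, which their choice by smallest p largely set in advance.

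Marker regions of liver cell types were also compared, where 11.6% of all regions were lower and 8.19% higher in dKO. Of the marker regions present in all libraries, 4 of 9 were lower for hepatocytes, with a median log2 fold change of -0.54, 3 of 15 were lower for endothelium, with -0.23, and 1 of 2 was lower for Kupffer cells, with -0.28. For cholangiocytes 1 of 2 was higher, with a median of 0.53, and of the 6 stellate cell regions 0 were called, with -0.03. Summed over their regions, hepatocyte markers had 624 to 865 in dKO and 618 to 1165 in control libraries, and these ranges overlapped, as did those of each other cell type. Kupffer cell markers had 20.6 to 35.7 in dKO and 26.4 to 33.6 in control libraries, with 4 defining genes, Clec4f, Adgre1, Cd5l and Vsig4, without a region. Endothelial markers had 218 to 366 in dKO and 285 to 397 in control libraries, stellate cell markers had 66.7 to 102 in dKO and 82.9 to 110 in control libraries, and cholangiocyte markers had 30.6 to 57.7 in dKO and 32.1 to 58.5 in control libraries, with Krt19 and Krt7 without a region. Lymphocyte markers had 0 to 5.29 in dKO and 0 to 4.42 in control libraries. The part of other cells in the respiratory chain values was not tested.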

How the data were processed

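ATAC-seq peak lists of 6 libraries were used, 3 dKO and 3 control, grouped by their titles. Per the submitters' processing notes, Trim Galore 0.6.4, Picard, SAMtools 1.10 and HOMER 4.11 were used on the build mm10. The aligner, the read filters and any shift of cut sites are not stated by labels or headers. Per the file headers, each library has its own HOMER peak list, so replicates were not pooled. The authors' deposited value analysed here is the normalized tag count, a signal scaled by HOMER to a depth that labels and headers do not state. Each peak also has a deposited score, which served as a filter, a fraction of tags placed about its centre, and a fold or ratio to its local background with a p-value.

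Overlapping peaks (1 bp or more; chromosomes 1 to 19 and X) were merged, and the highest normalized tag count in a region was its value. Regions present in all 6 libraries were fitted with limma 3.58.1 (R 4.3.3, mean-variance trend) on log2(value + 1), each library centred on its median, with the group as the only term and Benjamini-Hochberg adjustment over all of them. Fold changes on this scale understate the change of weak regions. The script was tested on simulated data. Gene spans and promoter windows are those of RefSeq on GRCm38.p6, joined in Python 3.11.15 with pandas 2.3.3, and 78 of the 96 genes matched a window. Among the others, the windows of Ndufs1, Ndufa2, Ndufa4l2, Ndufaf6, Ndufb9, Ndufb4c, Sdhc, Uqcrc2, Uqcrb, Uqcrq, Cox4i1, Cox4i2, Cox6a2, Cox6c, Cox8c, Atp5a1 and Atp5mpl were not used here. Exons and introns were not analysed here.

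Genes were named by rule: every called region, up to 15 with the smallest p in each direction; the 2 most and 2 least open genes of each complex; regions with peaks in one group only; tissue forms of subunits; genes without a region; and the 2 regions with the smallest p in each further list. The other regions and genes named beside these (further regions of a named gene, shared promoters) were chosen after their values were seen. A gene that the rule would name is not reported here. Members and lists were chosen with earlier results of these data known. Alternatives tried were 2 other pseudocounts, other normalizations, filters on level, peak score and libraries, other overlaps and gene links, peak width as a term or within its classes, array weights, a replicate block and leaving out each library.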

Additional observations from a re-analysis of the deposited data

How the results depend on the processing

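The counts of called regions depended on scaling, filters and single libraries. Over 328 values of the 16 called regions, 201 kept the call, 127 lost it and 0 reversed direction. These regions were called on the same libraries that each alternative fits again. The lack of reversals was thus largely set in advance and is no separate support. Against 2 respiratory chain regions higher and 14 lower (4240 and 5995 of all regions), quantile and cyclic loess normalization each gave 5 higher and 6 lower, and no centring gave 0 higher and 8 lower (2562 of all regions higher). A mean of at least 20 gave 3 higher and 2 lower of 74 (1963 and 1953 of all), and a stricter peak score 5 higher and 2 lower of 82 (2456 and 2229 of all). Both filters tested fewer regions, and each library was centred again on the median of those kept. The log2 fold change of Atp5g1 went from -0.56 to -0.41 with the first filter and -0.44 with the second. That of Ndufb5 went from -0.34 to -0.20 and -0.22. Regions present in at least 3 libraries gave 5 higher and 11 lower of 150. Peak width as a term gave 1 higher and 16 lower, the narrow-peak libraries alone gave 1 higher and 26 lower, the wide-peak libraries alone gave 0 and 0 (0 and 0 of all), and array weights gave 8 higher and 26 lower (9080 and 11533 of all). Pseudocounts of 0.25 and 4 kept 2 higher and 14 lower. Counting every region over a respiratory chain promoter window, an alternative chosen after seeing the data, gave 0 higher and 11 lower of 67 (1.99% and 11% of all regions over any window). The causes of these differences in count were not tested.

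Leaving out 1 library at a time gave 0 to 4 respiratory chain regions higher and 1 to 16 lower, and 1257 to 5174 of all regions higher and 1402 to 8123 lower. For peaks in dKO libraries only, the count of 1 became 0 with the stricter score, 3 with gene links up to 50 kb and 1 to 13 with 1 library left out, the 13 without dKO 3. For peaks in control libraries only, the count of 1 became 3 with the stricter score, 0 with gene links up to 1 kb and 1 to 3 with 1 library left out.

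Libraries with the same number deviated together at r = 0.15, -0.03 and 0.23 for numbers 1, 2 and 3, which does not pair them. A fit with the replicate block gave 3 higher and 15 lower in the respiratory chain and 5417 and 7384 over all regions. Not every library correlated best with its own number, since dKO 2 did so with control 1. Weak regions rest on the fewest tags, with the lowest values at 56 to 59 steps.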
